A study of Gallus gallus with 8 samples.

Results

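The chicken major histocompatibility complex (MHC) lies on chromosome 16, a microchromosome that also carries the MHC-Y region. The genes described here are all those that the authors' deposited table places on chromosome 16 and lists with a group mean above 0. There were 120 such genes among 141 rows of the chromosome and among 20170 genes with a value in the whole table. Liver RNA came from broiler chickens (Gallus gallus) labelled male and sampled on day 46. The low density group (treatment A) had a final target of 24.4 kg/m2 and the high density group (treatment D) one of 39.1 kg/m2. Each group had 4 libraries and each library pooled equal RNA of 4 birds, so 16 birds stand behind a group, and all birds were broilers of no stated line. RNA sequencing compared the groups to ask how the liver responds to crowding.

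MHC class I molecules carry peptides from inside the cell to the surface, where T cells and natural killer cells read them. Class II molecules do the same for peptides taken up from outside, mostly on professional antigen-presenting cells such as macrophages and B cells. The classical chicken class I and class II genes sit in a compact stretch called the B locus, together with tapasin, the TAP transporters, the DM genes that edit the class II cargo, and complement C4. Chicken haplotypes have been described in which BF2 is the dominantly expressed class I gene and BF1 a weaker one. In chickens BLB2 and DMB2 have been described mainly in blood-forming tissues, and BLB1 and DMB1 in the gut. BG genes encode butyrophilin-related surface proteins known as red cell antigens, and the MHC-Y region holds further class I and lectin-like genes.

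Fold changes and their p-values, raw or adjusted, were taken from the authors' deposited table. There the log2 fold change is high over low density, so a negative value is lower at high density. The table gives 0 columns of values per library, and both the spread between pools and library depth are unknown here. It gives the higher of both group means on a scale that the header does not name. Which group that mean belongs to is not given and was taken here from the sign of the fold change. The lower mean was derived here through the fold change. All pairs, ratios, shares and sums of group means below assume that the fold change holds on that scale. Orders of levels below are orders on that scale, which is not known to be per length. The standard error (SE) given with a log2 fold change is implied, as its size over the normal quantile that its p gives, which assumes a Wald test. Intervals rest on the same assumption. The labels do not say how the birds were penned, so pools of one density may share a pen. The p-values can set the difference only against the spread between pools, part of which may be technical. Whether density can be told apart from pen is not known here. As a check of the tissue, albumin (ALB) had the highest mean of all genes in the authors' deposited table, 36025. By the sign of its fold change that mean belongs to low density, and the derived mean at high density was 34746. On the W chromosome, which female birds carry, 70 of 92 genes with a value were higher at high density in the authors' deposited table. Of all genes 50.3% were higher. The W genes had a median log2 fold change of 0.89, the highest of the 35 chromosomes. An unadjusted p under 0.05 was reached by 10.9% of them (background 5.58%). Their median mean was only 0.077, and 0 of them passed an adjusted p of 0.05 (background 0.273%). The part of this W difference in any difference below was not tested.

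No gene of chromosome 16 passed an adjusted p of 0.05. In the authors' deposited table as a whole, 55 of 20170 genes did (0.273%). At so low a share, 0 calls among 120 genes are not unusual. Of the 35 chromosomes, 16 had 0 called genes, so this count does not set chromosome 16 apart. The same limit holds for each count of 0 called genes in the other sets described here. BF2, the class I gene with the highest mean, and BLB2, its class II counterpart, both had somewhat lower means at high density, by 0.27 and 0.33 on the log2 scale, and neither is a call. Their partners BF1 and BLB1 had log2 fold changes of -0.001 and 0.12. The smallest p of the chromosome belonged to a ribosomal RNA row, RF00002, with an adjusted p of 0.192 in the authors' deposited table.

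The 120 genes were split almost evenly by direction. At high density 57 were higher and 63 lower (47.5% higher, against 50.3% of all 20170 genes) in the authors' deposited table. Their median log2 fold change was -0.007 and that of all genes 0.001. Of the 68 whose mean was 1 or more, 30 were higher and 38 lower, with quartiles of -0.14 and 0.12 on the log2 scale. Of all 10867 genes at that level 47.8% were higher. Their quartiles were -0.11 and 0.08, and 0.396% passed the adjusted threshold. Of the 68, 0 did, which is not unusual at so low a share. Of the 120 genes, 12 had an unadjusted p below 0.05 (10%), against a background of 5.58% of all genes in the authors' deposited table. Of these 12, 5 were higher and 7 lower, where the backgrounds were 2.46% and 3.12%. At a mean of at least 1 the share was 8 of 68 (11.8%) against 6.41%. Those 8 were 3 higher and 5 lower genes, with backgrounds of 2.48% and 3.94%. By the share among all its genes with a value, chromosome 16 stood at rank 4 of the 35 chromosomes in the table, below the mitochondrial genome, chromosome 32 and W. Those hold the fewest genes with a value, at 19, 73 and 92, and chromosome 16 the next fewest, at 120. A share over few genes varies more widely than one over many. Chromosome 30, with 123 genes, had a share of 6.50% (rank 13), and chromosome 33, with 333 genes, one of 9.31% (rank 5). The part of gene number in these ranks was not tested. These shares are a description without a test, since the genes of chromosome 16 are neighbours and many of their models overlap.

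**Figure D1:**
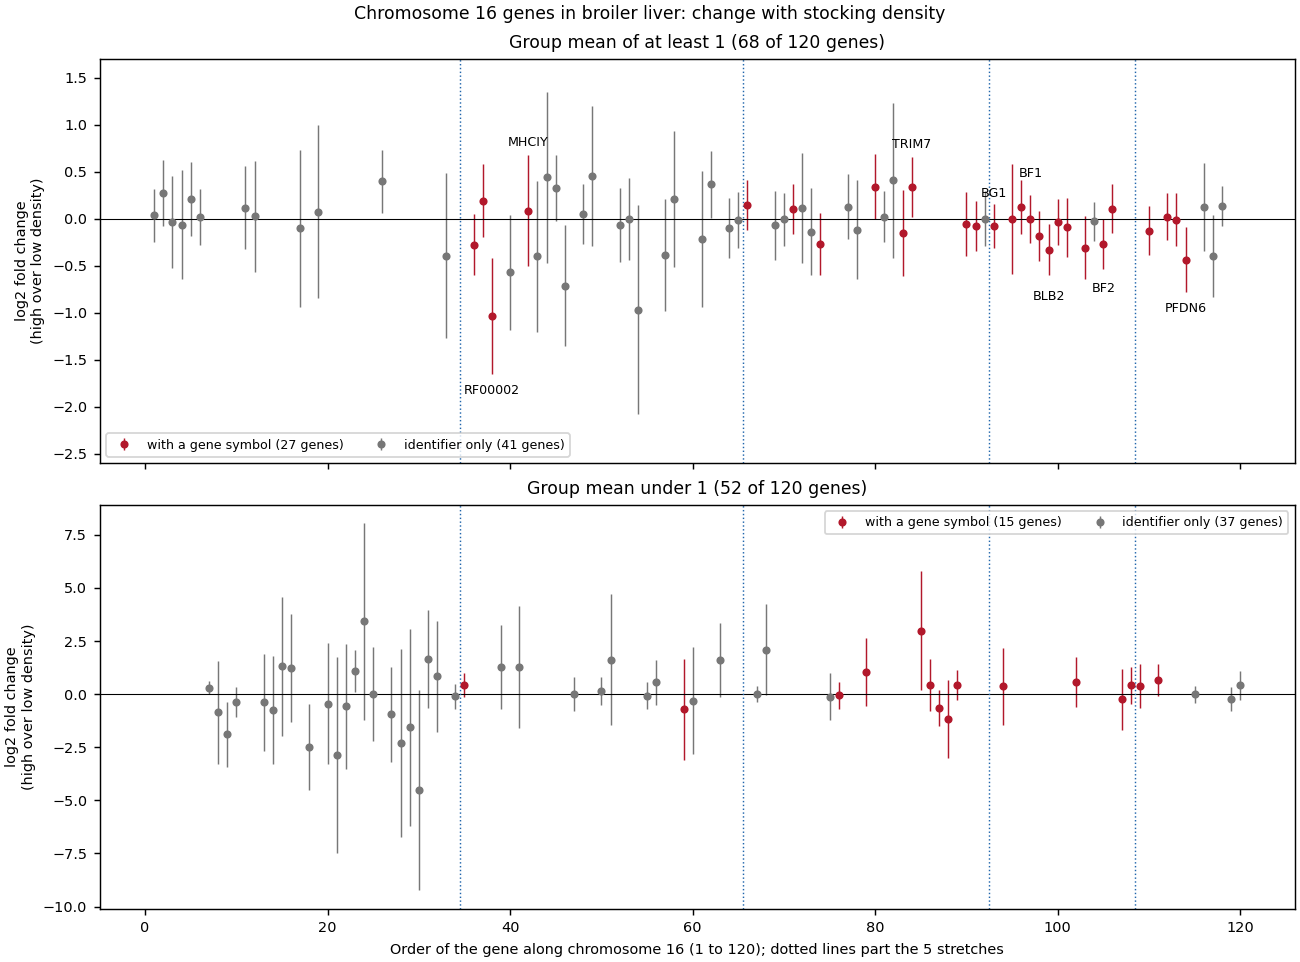
Log2 fold change (high over low density, y axis) of the 120 genes in their order along chromosome 16 (x axis), with bars for the implied 95% interval; the upper panel holds the 68 genes whose mean is 1 or more and the lower panel the other 52, on a wider y axis. Red points carry a gene symbol and dotted lines part the 5 stretches; most values of the upper panel lie close to 0, and RF00002 at -1.03 is the lowest.

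Gene models on this chromosome are nested and overlap more than elsewhere. Of the 120 genes, 65 (54.2%) overlapped another model with a value on the same strand, against 8.43% of all genes, the highest share of the 35 chromosomes. There were 16 models that spanned over 50000 bases. How the authors' counting assigned reads shared by overlapping or near-identical genes is given by no source used here, so values of such genes are uncertain. Its use of strand is not given either. The same limit therefore holds for genes that overlap a model on the other strand, such as BLB1, TAPBP and BRD2. A symbol was given for 42 of the 120 genes (35.0%, against 60.6% of all genes), and 33 of these 42 matched a gene on chromosome 16 of the RefSeq table (GRCg7b) by symbol or synonym. The other 78 are listed by identifier alone.

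The classical class I genes had some of the highest deposited means of the liver. BF2, the classical class I heavy chain (ENSGALG00000041380, GRCg6a chromosome 16, 2606528 to 2609057, minus strand), had a mean of 761 at low and 633 at high density, rank 53 of all genes in the authors' deposited table. Its log2 fold change was -0.27 (SE 0.14, p = 0.0487, adjusted p = 1.0, per the authors' deposited table), and its model overlaps no other. The implied 95% interval of -0.53 to -0.002 barely leaves out 0.

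BF1 (ENSGALG00000033932, 2565405 to 2595262, plus strand) had nearly the same mean in both groups, 220.5 at low and 220.3 at high density. Its log2 fold change was -0.001 (SE 0.13, implied interval -0.26 to 0.25, adjusted p = 1.0, per the authors' deposited table). The BF1 model is long and holds 6 other models with a value inside its span, 4 of them on its strand, namely BLB2, MHCDMA, DMB1 and DMB2. The RefSeq table instead places BF1 after DMB2. The BF1 level may therefore hold reads of those genes, which was not tested. On these values the mean of BF2 was 3.45 times that of BF1 at low and 2.87 times at high density. Whether the changes of BF1 and BF2 differ could not be tested without values per library.

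MHCIY, a class I gene of the MHC-Y region (1913575 to 1929106), stood far below both, at 11.5 in the low and 12.2 in the high density group. Its log2 fold change of 0.08 had a wide SE of 0.30 (adjusted p = 1.0, per the authors' deposited table). It overlaps 2 other models on its strand, and MHC-Y class I genes can be closely similar copies, so how its reads were assigned is uncertain.

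The class II beta chains showed the same order of a major and a minor gene. BLB2 (ENSGALG00000030940, 2572332 to 2573868, plus strand) had a mean of 400.4 at low and 319 at high density, rank 104 of all genes in the authors' deposited table. BLB2 had a log2 fold change of -0.33 (SE 0.14, implied interval -0.60 to -0.06, p = 0.0179, adjusted p = 0.782, per the authors' deposited table). BLB1 (2565094 to 2566926, minus strand) had means of 68.9 and 75.0 in the same order, and its log2 fold change was 0.12 (SE 0.15 with an adjusted p of 1.0, per the authors' deposited table). BLB2 made up 85.3% of the sum of both beta chain means at low density and 81.0% at high density. The intervals of BLB1 and BLB2 overlap, and their difference was not tested. BLB2 lies inside the deposited BF1 model on its strand, and BLB1 overlaps the BF1 and BLEC1 models on the other strand. Shared reads may be part of both values and of these shares, which was not tested.

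The DM genes, whose products exchange peptides on class II molecules, were expressed at lower levels. MHCDMA, which the RefSeq table lists as DMA, had means of 8.74 at low and 8.20 at high density. For MHCDMA the log2 fold change was -0.09 (SE 0.16 with an adjusted p of 1.0, per the authors' deposited table). DMB2 had means of 5.56 and 4.48 and a log2 fold change of -0.31 (SE 0.17, p = 0.0693, adjusted p = 1.0, per the authors' deposited table). DMB1 was near the bottom of the range, at 0.126 and 0.187, and its log2 fold change of 0.56 carries an SE of 0.59. In both groups the deposited means of BLB2 and DMB2 were above those of BLB1 and DMB1, on a scale not known to be per length. All 3 DM models overlap others on their strand.

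Peptide loading was represented by name by a single gene, TAPBP (tapasin), which bridges class I molecules to the TAP transporter. TAPBP had means of 32.9 at low and 29.0 at high density and a log2 fold change of -0.18 (SE 0.14, p = 0.185, adjusted p = 1.0, per the authors' deposited table). The TAPBP model lies inside the deposited BF1 model on the other strand, and the part of shared reads in its value was not tested. No row of the chromosome is named TAP1 or TAP2. The RefSeq table places both between BF1 and BF2, and the authors' deposited table has 1 unnamed model before BF2, ENSGALG00000029381 (2592345 to 2605843). It begins just after DMB2, inside the deposited BF1 model and on its strand, so its value may hold BF1 reads, which was not tested. This model had means of 23.4 at low and 22.9 at high density and a log2 fold change of -0.03 (SE 0.10 with an adjusted p of 1.0, per the authors' deposited table).

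Taken as a group, the 9 named genes of class I, class II, class II editing and peptide loading were higher in 3 cases and lower in 6 (median log2 fold change -0.09). None was called (background 0.273%), and 2 of the 9, BF2 and BLB2, had an unadjusted p under 0.05 in the authors' deposited table (background 5.58%). Their means added up to 1510 at low and 1301 at high density, and BF2 and BLB2 hold most of that sum.

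**Figure D2:**
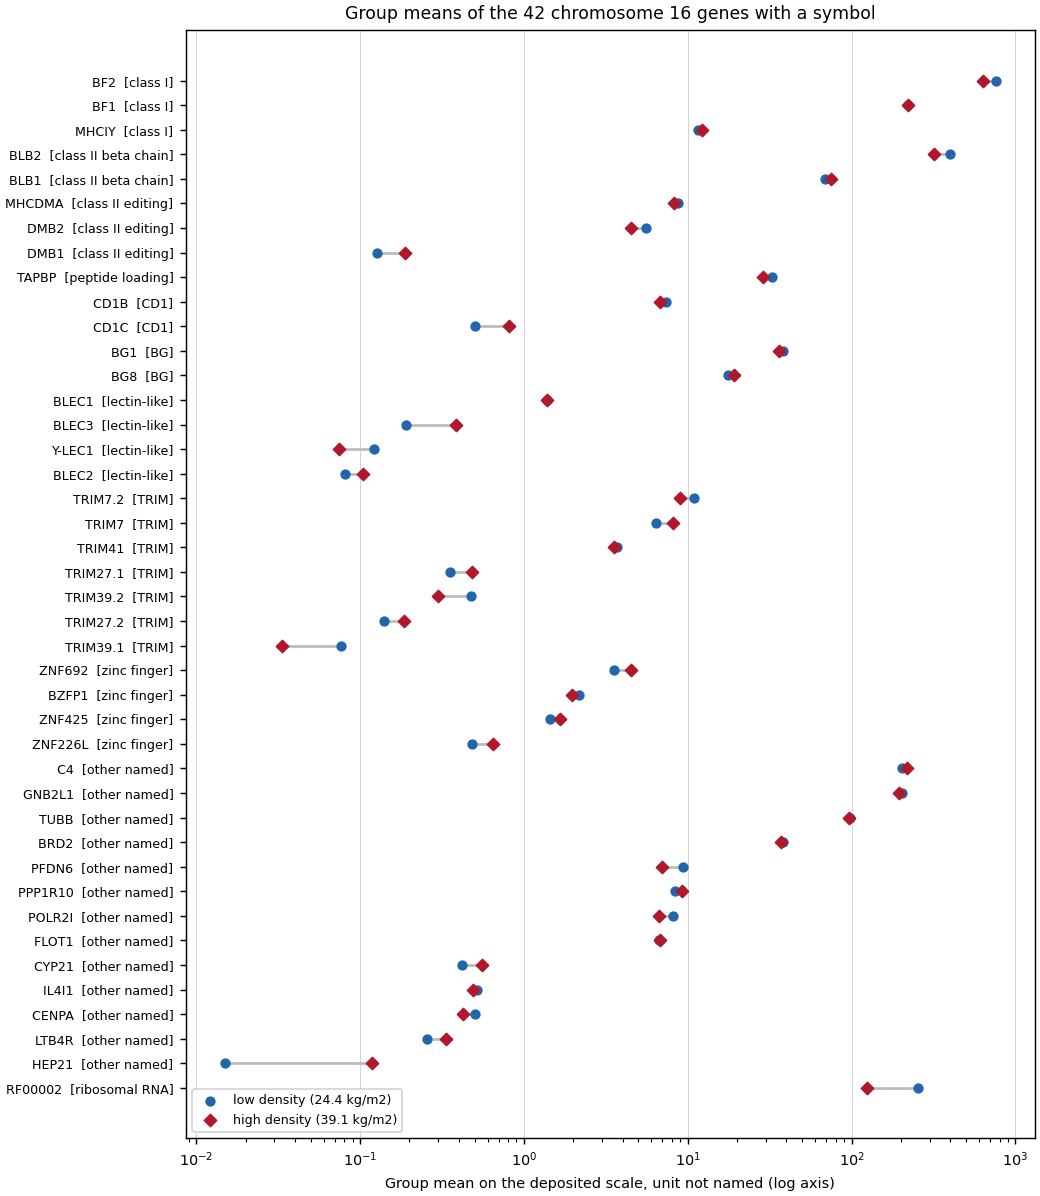
Group means on the deposited scale, whose unit is not named (log x axis), of the 42 chromosome 16 genes with a symbol, sorted by role (in brackets) and level; blue circles are the low and red diamonds the high density group, and no error can be drawn because the table holds no values per library. The 2 marks of BF1 coincide, those of BF2 and BLB2 lie slightly apart with the high density mark to the left, and the widest gap is that of HEP21 near the lower end of the range.

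The BG genes had similar means in both groups. BG1 (2549855 to 2554710), which overlaps no other model, had means of 37.9 at low and 35.9 at high density, with a log2 fold change of -0.08 (SE 0.12, implied interval -0.31 to 0.15, adjusted p = 1.0, per the authors' deposited table). BG8 had means of 17.7 and 19.0 and a log2 fold change of 0.10 (SE 0.14). BG8 shares its strand with 5 overlapping models, of which ENSGALG00000013101 covers nearly the same span (2276258 to 2395893, against 2283023 to 2395890 for BG8). It had means of 15.7 and 15.6. BG proteins occur on red cells, and the summed mean of erythroid markers was 331 at low and 478 at high density; their part in the BG values was not tested.

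The CD1 genes encode class I-like molecules that present lipids. CD1B had means of 7.36 at low and 6.75 at high density (log2 fold change -0.13, implied SE 0.13). CD1C was rarer, at 0.505 and 0.805, with a log2 fold change of 0.67 (SE 0.39, p = 0.0836, adjusted p = 1.0, per the authors' deposited table). The lectin-like genes, related to natural killer cell receptors and their ligands, were all near or below a mean of 1. BLEC1 had a mean of 1.38 in both groups and a log2 fold change of 0.001 (SE 0.30). The other lectin-like genes BLEC2, BLEC3 and Y-LEC1 had log2 fold changes of 0.36, 1.03 and -0.71 with implied SEs of 0.93, 0.82 and 1.21 in the authors' deposited table, too wide to read a direction.

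TRIM genes, a family of RING-type ubiquitin ligases, were higher in 3 and lower in 4 of 7 cases (median log2 fold change -0.05), with 0 called (background 0.273%). TRIM7 (2482327 to 2491638) had means of 6.43 at low and 8.12 at high density. That is a log2 fold change of 0.34 (SE 0.16, p = 0.04, adjusted p = 1.0, per the authors' deposited table). TRIM7 is the 1 TRIM gene of 7 with an unadjusted p under 0.05 (background 5.58%), and its mammalian counterpart binds glycogenin, the primer of glycogen. TRIM7.2 went the other way, with means of 10.9 and 9.01 and a log2 fold change of -0.27 (SE 0.17, p = 0.108 in the authors' deposited table). Its model overlaps 3 others on its strand. TRIM41 had means of 3.70 and 3.57. TRIM27.1 (0.45), TRIM27.2 (0.42), TRIM39.1 (-1.18) and TRIM39.2 (-0.66) all had means under 0.5 and implied SEs of 0.36 to 0.93 in the authors' deposited table.

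The zinc finger genes were higher in 3 of 4 cases (50.3% of all genes were higher), and none was called (background 0.273%). ZNF692 had means of 3.57 at low and 4.52 at high density and a log2 fold change of 0.34 (SE 0.18, p = 0.053, adjusted p = 1.0, per the authors' deposited table). ZNF425 (0.19), ZNF226L (0.43) and BZFP1 (-0.15) had unadjusted p-values between 0.128 and 0.522 in the authors' deposited table.

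Among the other named genes, those with the highest means had log2 fold changes near 0. Complement C4, a secreted liver protein (2609635 to 2624278), had means of 202 at low and 218 at high density and a log2 fold change of 0.11 (SE 0.14 with an adjusted p of 1.0, per the authors' deposited table). GNB2L1, the ribosome-bound scaffold that RefSeq lists as RACK1, had means of 204 and 193 and a log2 fold change of -0.08 (SE 0.14). TUBB, a beta tubulin, had a value of -0.01, and BRD2, a reader of acetylated histones, one of -0.03 in the authors' deposited table. PPP1R10, a nuclear subunit of protein phosphatase 1, had a log2 fold change of 0.15, and the membrane scaffold FLOT1 one of 0.02.

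PFDN6, a prefoldin subunit that helps fold actin and tubulin (2763003 to 2769392), had a lower mean at high density without being a call. The means were 9.37 at low and 6.92 at high density, with a log2 fold change of -0.44 (SE 0.18, p = 0.0139, adjusted p = 0.73, per the authors' deposited table). POLR2I, a subunit of RNA polymerase II, had means of 8.09 and 6.68 and a log2 fold change of -0.28 (SE 0.16, p = 0.0948, adjusted p = 1.0, per the authors' deposited table). The remaining named genes had means under 1. IL4I1, an L-amino acid oxidase, had a log2 fold change of -0.07, CYP21, a steroid hydroxylase, 0.42, CENPA, the centromeric histone, -0.24, and LTB4R, a leukotriene receptor, 0.38 in the authors' deposited table. HEP21, which RefSeq lists as SLURP1, had means of only 0.0149 and 0.118 and a log2 fold change of 2.98 (SE 1.43, p = 0.0376, adjusted p = 0.989, per the authors' deposited table).

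RF00002, the table's name for a row that carries the Rfam number of 5.8S ribosomal RNA (153 bases, 1804045 to 1804197), had the largest change among members with a mean of at least 1. Its means were 255 at low and 125 at high density, and its log2 fold change was -1.03 (2.05-fold lower, implied SE 0.31, p = 0.00103, adjusted p = 0.192, per the authors' deposited table). It lies inside the long model of ZNF425, on the same strand, whose log2 fold change was 0.19. Ribosomal DNA is repeated many times on this chromosome, and what 1 row stands for is not known here. Other rows with Rfam names and a mean of at least 1 were lower in 14 and higher in 7 of 21 cases (median log2 fold change -0.25), with 0 called (background 0.396% of all genes at that level). An unadjusted p under 0.05 was reached by 3 of the 21, all lower (background 3.94% lower). Among them RF00100_5 was at -1.06 (adjusted p = 0.0726, per the authors' deposited table). Whether the library preparation selected polyadenylated RNA or removed ribosomal RNA is given by no source used here, and its part in these values was not tested.

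**Figure D3:**
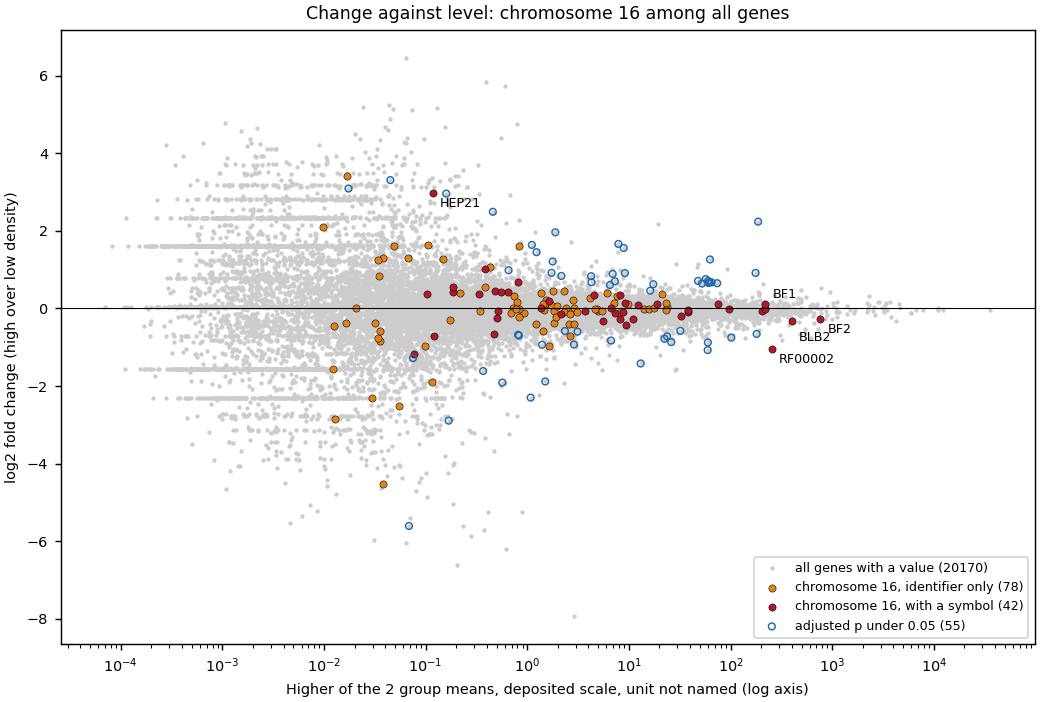
Log2 fold change (high over low density, y axis) against the higher group mean on the deposited scale (log x axis, unit not named); grey points are all 20170 genes with a value, filled orange and red points the 120 chromosome 16 genes, and blue rings the 55 genes with an adjusted p under 0.05. No chromosome 16 point carries a ring, and the widest changes of the chromosome lie at means under 1.

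Position along the chromosome was described in 5 stretches parted at named genes after the values had been seen. The first, from 501635 to 1717308, held 34 genes, none with a symbol, and their median mean was only 0.103. Over all 34 genes 16 were higher and 18 lower at high density (median log2 fold change -0.05), and of the 12 whose mean was 1 or more 8 were higher and 4 lower. ENSGALG00000043671, a model of 259524 bases, had means of 4.59 and 6.06 and a log2 fold change of 0.40 (SE 0.17, p = 0.0189, adjusted p = 0.80, per the authors' deposited table). It overlaps 4 models with a value on its strand. ENSGALG00000050439 (-1.90, p = 0.0143), ENSGALG00000048816 (-2.50, p = 0.015) and ENSGALG00000048912 (1.08, p = 0.0345) also had unadjusted p-values under 0.05 in the authors' deposited table, at means of 0.114, 0.0544 and 0.43.

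The second stretch, from ZNF226L through MHCIY and Y-LEC1, held 31 genes, and 22 of them overlapped another model with a value on their strand. Over all 31 genes 16 were higher and 15 lower (median log2 fold change 0.02), and among those with a mean of at least 1 there were 8 higher and 12 lower. ENSGALG00000047627, of 1879 bases, has no overlap on its strand but overlaps 3 models with a value on the other strand. It had the highest mean of the rows without a symbol here, with means of 16.3 and 20.9. This gave a log2 fold change of 0.37 (SE 0.18, p = 0.0442, adjusted p = 1.0, per the authors' deposited table). ENSGALG00000051088 had means of 2.64 and 1.61 and a log2 fold change of -0.71 (SE 0.33, p = 0.0295, adjusted p = 0.917, per the authors' deposited table). ENSGALG00000054397 had one of -0.97 with a wide SE of 0.57. The 3 highest values at this level, ENSGALG00000044569 (0.45), ENSGALG00000047025 (0.44) and ENSGALG00000049174 of the third stretch (0.41), had unadjusted p-values between 0.234 and 0.34 in the authors' deposited table.

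The third stretch, from PPP1R10 to just before BG1, holds BG8 and the TRIM genes and had 13 higher and 14 lower of 27, with a median of -0.001. Its 17 genes whose mean was 1 or more split into 8 higher and 9 lower. The fourth, from BG1 to CYP21 (2549855 to 2630699), is the B locus proper, with 6 higher and 10 lower of 16. Of its 12 genes whose mean was 1 or more, 3 were higher and 9 lower (median log2 fold change -0.06, range -0.33 to 0.12) in the authors' deposited table. Of all genes at that level 47.8% were higher. The 12 include BLB1, BF1, TAPBP, BLB2, MHCDMA, DMB2 and BF2, already counted in the antigen presentation group above. This stretch had the highest expression of the 5, with a median mean of 37.9 at that level, against 2.60 to 7.90 in the others. The fifth, from LTB4R onwards, had 6 higher and 6 lower (3 and 4 at a mean of at least 1), and no gene in it overlapped another model with a value on its strand. No stretch held a called gene. The background is 0.273% of all genes, so 0 calls in sets this small do not set any stretch apart.

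Other antigen presentation genes lie on other chromosomes, and 25 genes of a list of 35 symbols had a value there. CD1B and CD1C of that list are on chromosome 16 and were left out. The other symbols without a value matched no row, so the list does not cover the whole pathway. None of the 25 was called (background 0.273%), 14 were higher and 11 lower, the median log2 fold change was 0.005, and 0 had an unadjusted p under 0.05 in the authors' deposited table (background 5.58%). B2M, the light chain of every class I molecule, had means of 447 at low and 417 at high density. The log2 fold change of B2M was -0.10 (SE 0.13, p = 0.418, adjusted p = 1.0, per the authors' deposited table). The chaperones of class I assembly, CALR (-0.12), PDIA3 (0.006) and CANX (0.005), and the class I transactivator NLRC5 (-0.02) were close to 0. The smallest p-values of the list belonged to IRF1 (-0.24), an interferon-induced activator of class I genes, LNPEP (-0.22), a peptide-trimming aminopeptidase, and LGMN (0.20), a lysosomal protease, between 0.106 and 0.119 in the authors' deposited table.

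The list of interferon and JAK-STAT genes holds some that act upstream of MHC expression and others that interferon induces. Of its 45 symbols, 36 had a value. None was called (background 0.273%). Of the 36, 21 were higher and 15 lower (median log2 fold change 0.03), where 50.3% of all genes were higher. An unadjusted p under 0.05 was reached by 3, all lower, in the authors' deposited table (background 3.12% lower). These were IFI6 (-0.68), IFITM3 (-0.30) and GBP (-0.40), which encode interferon-induced proteins. IFITM3 had means of 241 and 196. MX1 (0.09) and RSAD2 (0.15), also induced by interferon, had unadjusted p-values of 0.764 and 0.574, per the authors' deposited table. IRF1 is in both lists.

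Bulk liver RNA mixes hepatocytes with other cells, so fewer cells of a type and less RNA per cell cannot be told apart. The marker lists were chosen with earlier results of these data known. Markers of a type were measured in the same pools, so the counts by direction are not independent observations. Of all genes 50.3% were higher. T and NK cell markers were lower in 18 of 18 cases (median log2 fold change -0.39), and their means added up to 83.1 at low and 62.0 at high density. GNLY, a cytolytic granule protein, fell (-0.58, adjusted p = 0.0396, per the authors' deposited table), the 1 called gene of the 18 (background 0.273%). With GNLY, 5 had an unadjusted p below 0.05, all lower (background 3.12% lower), among them CD247 (-0.60) and CD3E (-0.43), parts of the T cell receptor complex. Macrophage and dendritic cell markers, of cells that carry class II, were lower in 17 of 21 cases (median -0.08), with summed means of 669 and 626. None of the 21 reached an unadjusted p of 0.05 (background 5.58%). The smallest p-values there were those of LY75 (0.19), SPI1 (-0.17) and MARCO (-0.20) in the authors' deposited table. B cell markers were higher in 7 and lower in 8 of 15 cases (median -0.16, sums of 23.9 and 22.2). EBF1 (1.77 at a mean of 0.145) was the 1 B cell marker of 15 with an unadjusted p under 0.05 (background 5.58%), followed by CXCR5 (-0.87) and TNFRSF13B (0.77).

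Of the 13 erythroid markers, 12 were higher (median log2 fold change 0.46, sums of 331 at low and 478 at high density), with 0 called (background 0.273%). An unadjusted p below 0.05 was seen for 4 higher markers and 1 lower marker, against backgrounds of 2.46% and 3.12%. The smallest p-values were those of SLC4A1 (0.67), HBZ (-2.21) and RHCE (0.46) in the authors' deposited table. Thrombocyte markers were higher in 2 and lower in 6 of 8 cases (median -0.13, sums of 19.9 and 18.8), led by THBS1 (-0.23), TUBB1 (0.23) and ITGB3 (-0.17). Hepatocyte markers were higher in 10 and lower in 5 of 15 cases (median 0.03, sums of 73274 and 71688), led by FGG (0.17), RBP4 (0.63) and FGA (0.16). No listed marker stood at 0 in the table, but markers whose symbol matched no row are left out of these counts. The lists held 24 symbols for T and NK cells, 27 for macrophage and dendritic cells and 18 for B cells. For erythroid cells there were 22, for thrombocytes 12 and for hepatocytes 15. The part of these cell type differences in the values of BF2, BLB2 or any other chromosome 16 gene was not tested.

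**Figure D4:**
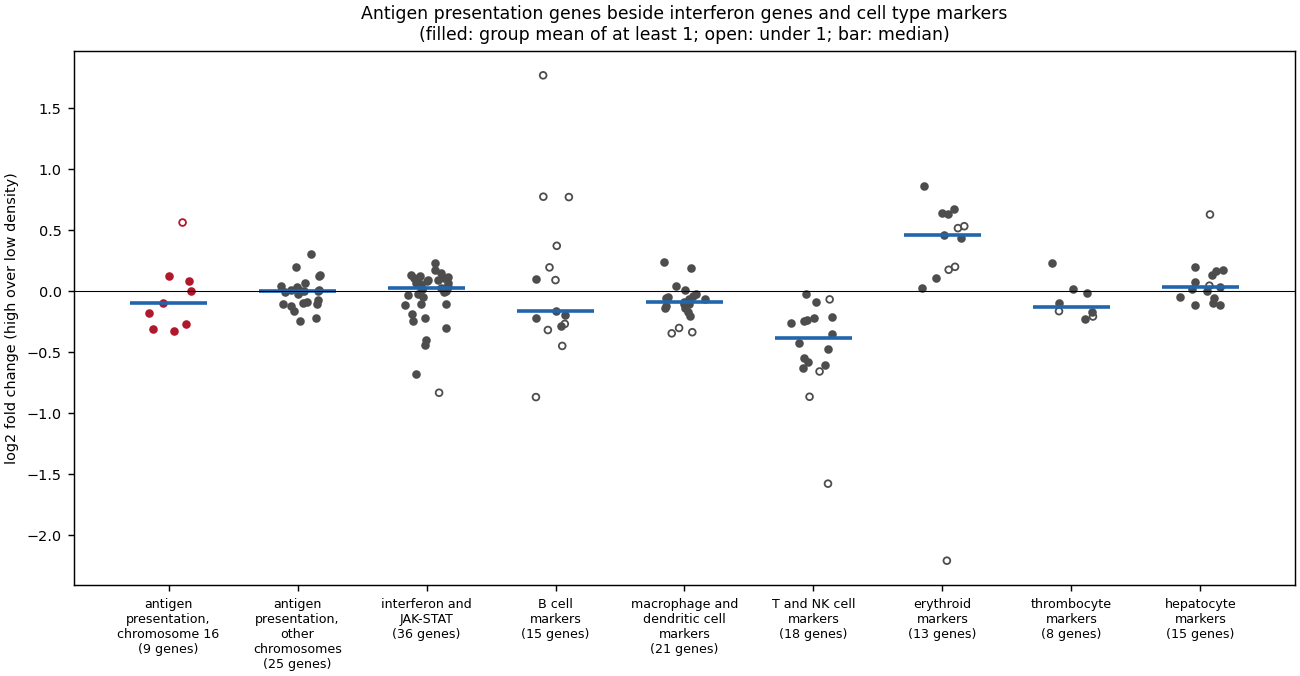
Log2 fold change (high over low density, y axis) of the 9 named antigen presentation genes of chromosome 16 (red) beside 2 function lists and 6 marker lists from other chromosomes (grey); filled points have a group mean of at least 1, open points a lower one, bars are medians, and sideways scatter has no meaning. The red points centre on -0.09, the T and NK cell markers all lie below 0 with a median of -0.39, and the erythroid markers lie above 0 apart from HBZ.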

How the data were processed

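The one file used was the authors' deposited table of a comparison of high (D) with low (A) stocking density, 4 libraries a group. It holds 0 columns of values per library, so the groups were not tested again here. Per the file headers, the authors deposited the higher group mean (another scale, not named), the log2 fold change, its signed linear fold, and a raw p-value with 2 adjusted p-values for 23613 Ensembl genes. Coordinates are on GRCg6a, the build named per the submitters' processing notes. Aligner, counting, strand, normalization and test: not given in the sources used here. Depth is unknown.

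Rows with every value at 0 (3443, 21 on chromosome 16) have no result. Of those 21, 14 span at most 120 bases, 4 of them with a miRNA name, and the other 7 are longer models. A gene was called at a deposited adjusted p under 0.05. Recomputing that value by Benjamini-Hochberg over all rows, with empty rows at 1, differed by at most 2.4e-05. At a fixed mean the implied SE fell with the span of the gene (Spearman's rho -0.53 to -0.40 in 4 bins of the mean, across genes), so the mean may be per length, which no header states. Named genes are all members with a symbol, an unadjusted p under 0.05, the 5 highest means or the 3 largest changes each way at a mean of at least 1, and the 3 smallest p-values of each list. The members and lists were chosen with earlier results of these data known. The adjustment was tested on simulated data and the overlap counts on a small made-up table. The implied SE was recovered from p-values simulated under a Wald test. That checks the arithmetic and cannot test whether a Wald test holds for these data. Python 3.11.15, pandas 2.3.3 and scipy 1.17.1 were used.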

Additional observations from a re-analysis of the deposited data

How the results depend on the processing

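The count of called chromosome 16 genes stayed at 0 at an adjusted p of 0.1. It was also 0 with adjustment over the 20170 genes with a value or the 10867 with a mean of at least 1. Subsets with group means of at least 0.1 or 1, with a symbol, or free of same-strand overlap held 0 too. So did the Bonferroni p. Those counts could not differ from 0, since they reuse the deposited adjusted p or a stricter one, so they are no check. The smallest adjusted p of the chromosome, that of RF00002, was 0.192 as deposited, 0.164 over the genes with a value and 0.118 over those with a mean of at least 1. At an unadjusted p under 0.05 there were 12 genes of 120 (10%, background 5.58%). In both function lists the count of called genes also stayed at 0 at an adjusted p of 0.1 and under both readjustments. Their counts at a mean of at least 1 and by the Bonferroni p were fixed at 0 in the same way. In these lists 0 of 25 and 3 of 36 genes had an unadjusted p under 0.05, against the same background. The share of higher genes ranged from 44.1% to 54.9% and the share with an unadjusted p under 0.05 from 9.80% to 14.3%. The background of the latter was 5.58% of all genes and 6.41% of those with a mean of at least 1. It was not computed for genes with a symbol or free of same-strand overlap. The median log2 fold change was 0.02 for the 51 genes free of same-strand overlap, against -0.007 for all 120, both near 0. No paired analysis was possible because the table holds no values per library, and for the same reason leaving out single libraries was not run. Depth per library is unknown, and with an implied SE of 0.14 on the log2 scale for BF2, small differences cannot be resolved.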

Other observations

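Large fold changes on chromosome 16 were nearly all at low levels. Of 20 genes with a log2 fold change of at least 1 in size, 19 had a mean under 1, and RF00002 was the other. The 21 members with a mean under 0.1 ranged from -4.53 to 3.42 with a median implied SE of 1.33.

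At such means the authors' deposited table repeats a few log2 fold changes many times. Among the 5782 genes of the table with a mean under 0.1, 370 had a value that rounds to 1.60, 289 one of -1.57, 174 one of 2.34, 157 one of 0.03 and 108 one of -2.30. On chromosome 16, ENSGALG00000052531 (-1.57) and ENSGALG00000053406 (-2.30) carry such repeated values, with unadjusted p-values of 0.509 and 0.307.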
